A study of Arabidopsis thaliana with 12 samples.

Results

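Leaf transcripts of the Arabidopsis thaliana mutant crwn1;4 pnet2_a, called the triple mutant here, were set against those of crwn1;4, the double mutant. Both genotypes carry knock outs of CRWN1 and CRWN4, and the triple mutant carries a CRISPR mutation of PNET2_A in addition. The comparison asks what the loss of PNET2_A adds in plants that already lack CRWN1 and CRWN4. Its members were all genes with at least 1 FPKM in 3 or more of the 6 libraries of the 2 genotypes, 18277 of the 32833 genes in the table. FPKM is the number of sequenced fragments scaled to gene length and to the number mapped in the library. Of the other 14556 genes, 10482 were listed at 0 in all 6 libraries. The series holds 12 libraries of untreated leaves, 3 each of crwn1;4 pnet2_a, of crwn1;4 pnet2_b (the same knock outs with a CRISPR mutation of PNET2_B), of crwn1;4 and of wild type Columbia (WT). Plants were 3 weeks old by the sample titles but 4 weeks old by the protocol, and RNA came from about 50 mg of leaf each. The labels name neither the CRISPR alleles nor the number of lines, and nothing says that replicates were separate plants, so p-values measure only the spread of these libraries, which can be technical. The annotation used here names no PNET2 gene, so the mutation itself was not checked.

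CRWN proteins are long coiled-coil proteins that form the plant counterpart of the nuclear lamina under the inner nuclear membrane, and PNET2 proteins sit in the inner nuclear membrane. Plants that lack CRWN proteins are known for small nuclei and, in leaves, for salicylic acid and defence gene expression without infection. Salicylic acid is made from isochorismate, is sensed by NPR receptors, and acts through TGA and WRKY transcription factors on pathogenesis-related (PR) genes.

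CRWN1 had 1.67, 1.47 and 1.88 FPKM in the triple mutant, against 1.74, 1.87 and 2.0 FPKM in the double mutant, and CRWN4 had 1.51, 1.5 and 1.65 FPKM in the triple mutant, against 1.3, 1.24 and 1.24 FPKM in the double mutant. The genotypes overlapped for CRWN1, the triple mutant libraries were slightly higher for CRWN4, and neither gene passed the test (limma adjusted p = 0.554 and 0.391). CRWN4 overlaps another gene on the same strand, so reads of that gene could be counted in it. The same uncertainty holds for other genes named here that overlap a neighbour, AT1G66100, AT2G20870, AT4G13575, AT4G22485, BCAT-2, CAT2, COR15B, CRK42, DIN10, FER1, FLS2, GSTF11, HCEF1, ICS2, IMA3, LHCB2.3, LHCB4.2, LSD1, MPK3, NEAP3, NPR1, RLP23, RPT3, SARD1, SARD4, SINE2, SOBIR1, THI2.1, WRKY53 and ZAR1, since the strand setting of the counting is not given in the sources used here. Library totals were 626248 to 640228 FPKM in the triple mutant and 646299 to 650907 FPKM in crwn1;4, with 20640 to 20747 and 19841 to 20431 genes above 0. The depth of the libraries is unknown. Replicate 3 of crwn1;4 had higher defence transcripts than the other libraries of its genotype. The summed level of the PR list was 1638, 1673 and 2027 FPKM in the triple mutant, against 241, 221 and 430.0 FPKM in crwn1;4, the last in replicate 3. Without replicate 1, 2 or 3 of crwn1;4 the number of genes changed was 4675, 5115 or 5546, against 6060 with all libraries, so replicate 3 moved that count least. Markers of seeds were listed at 0 in all 6 libraries apart from 0.691 FPKM in 1 triple mutant library. Flower organ markers summed to 1.56 ± 0.601 FPKM in the triple mutant and 3.94 ± 0.967 FPKM in crwn1;4 (SD, n = 3 each). Of these 5 markers 4 were not kept, with at most 1.62 FPKM in a library, and the 1 kept had no call (log2 change -0.15).

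Much of the leaf transcriptome differed between the genotypes, with defence, protein folding and protein turnover genes higher and photosynthesis, aquaporin and wax genes lower in the triple mutant. Of the 18277 genes, 6060 changed (33.2%), 4312 upward (23.6%) and 1748 downward (9.56%), in limma's test on log2(FPKM + 1) with Benjamini-Hochberg adjustment over all genes kept and a threshold of 0.05. A log2 change is the triple mutant minus crwn1;4 on that scale, which understates changes of low genes. Among changes of 2-fold or more there were 796 rises (4.36%) and 113 falls (0.618%), of which 111 rises and 5 falls had a log2 change of 2 to 3 and 8 rises and 1 fall a larger one. The filter bears on this split, since 261 genes passed it only through the triple mutant and 231 of these were called rises, while 62 passed only through crwn1;4 and 46 of these were called falls. Such genes had to differ. Of the genes named here, ALD1, AT3G01345, NAC090, SAG12, SPX3, UGT76B1, WRKY62 and XTH10 passed only through the triple mutant, and AT1G64795, MYB76 and THI2.1 only through crwn1;4. The 6 libraries did not overlap at 8715 genes (47.7%), so lack of overlap in a gene named below adds little to its call. Over all genes the log2 change had a median of 0.11, and the split between rises and falls moved with the scaling. Rises were 71.2% of the calls with the deposited values, 51.3% after median-ratio scaling and 46.3% after quantile normalization.

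**Figure D1:**
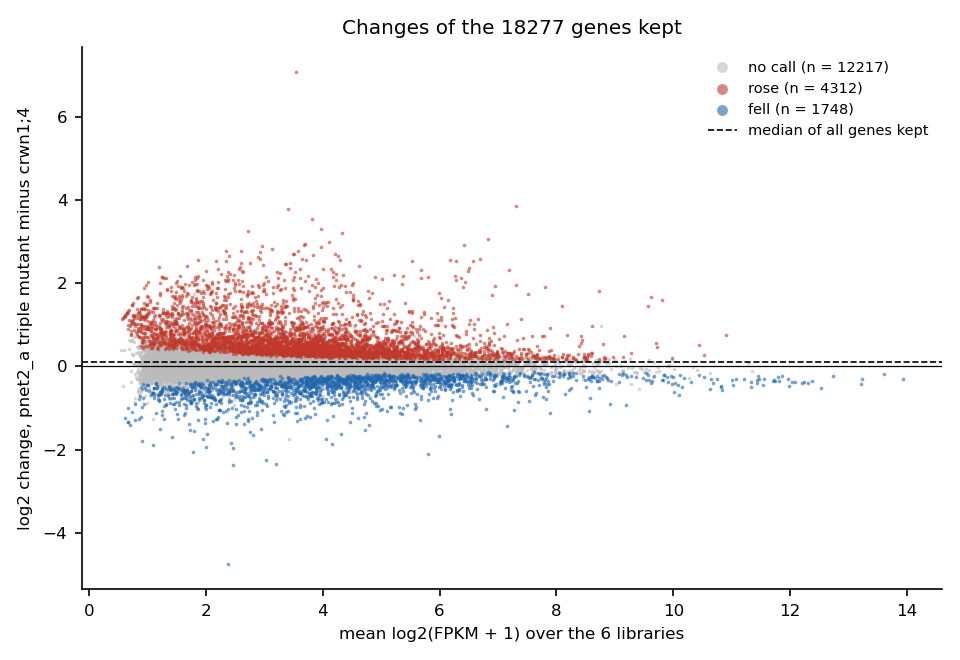
Each point is 1 of the genes kept. The horizontal axis is the mean log2(FPKM + 1) over the 6 libraries and the vertical axis the log2 change of the triple mutant minus crwn1;4, with 4312 genes that rose in red, 1748 that fell in blue and the rest in grey; the dashed line is the median of all genes, 0.11. Large rises sit at low and middle levels, and past a log2 change of 3 lie 8 rises and 1 fall.

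Genes of secreted defence proteins rose strongly. Of 13 PR and related genes kept, 11 rose and none fell, with a median log2 change of 2.53. The chitinase gene CHI (AT2G43570), whose product attacks fungal cell walls, had 51.1, 54.7 and 75.8 FPKM in the triple mutant, against 4.16, 3.42 and 11.6 FPKM in the double mutant (log2 change 3.20, SE 0.33, limma adjusted p = 5.91e-06). Every triple mutant library stood more than 4-fold above every crwn1;4 library. PNP-A, a small secreted peptide that acts on ion and water transport, had 31.6, 35.2 and 35.6 FPKM in the triple mutant, against 1.77, 2.84 and 8.41 FPKM in the double mutant (log2 change 2.92). LURP1, needed for basal defence against downy mildew, had 209.5, 244 and 229 FPKM in the triple mutant, against 32.3, 32.5 and 53.7 FPKM in the double mutant (log2 change 2.53, SE 0.19, limma adjusted p = 3.85e-07). AED1, a secreted protease of the apoplast, had 179, 180.5 and 201 FPKM in the triple mutant, against 24.1, 24.2 and 53.3 FPKM in the double mutant (log2 change 2.53). All 4 genes were highest of the crwn1;4 libraries in replicate 3, and in none did the genotypes overlap.

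Genes of salicylic acid synthesis rose, and so did genes that inactivate the hormone. Of 15 genes of synthesis and its activation kept, 8 rose and 1, the isochorismate synthase gene ICS2, fell, or 6 and 3 after median-ratio scaling or quantile normalization. Falls were 2 without replicate 3 of crwn1;4 or replicate 1 of the triple mutant. SARD1 and CBP60G encode transcription factors that switch on the main synthase gene, ICS1. SARD1 had 28.5, 31.2 and 27.9 FPKM in the triple mutant, against 5.01, 6.08 and 9.09 FPKM in the double mutant (log2 change 2.0, SE 0.15, limma adjusted p = 5.53e-07), and CBP60G had 16.2, 20.8 and 20.1 FPKM in the triple mutant, against 4.39, 5.34 and 6.51 FPKM in the double mutant (log2 change 1.65). ICS1 itself had 18.2, 16.9 and 18.9 FPKM in the triple mutant, against 5.13, 5.82 and 9.38 FPKM in the double mutant (log2 change 1.33). PBS3, which conjugates isochorismate with glutamate on the way to salicylic acid, had 9.92, 10.9 and 12.6 FPKM in the triple mutant, against 3.57, 3.38 and 4.28 FPKM in the double mutant (log2 change 1.36). The genotypes did not overlap in these 4 genes, and replicate 3 of crwn1;4 was the highest of its genotype in each. ICS2 had 1.28, 1.04 and 0.895 FPKM in the triple mutant, against 2.26, 2.12 and 1.64 FPKM in the double mutant, and its call (limma adjusted p = 0.0197) was lost without replicate 1 or 2 of crwn1;4 or replicate 2 or 3 of the triple mutant, with an adjusted p of up to 0.0761.

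Of 7 genes of salicylic acid inactivation kept, 6 rose and none fell. The salicylic acid hydroxylase gene DMR6 had 96.8, 114 and 122 FPKM in the triple mutant, against 14.6, 15.2 and 26.9 FPKM in the double mutant (log2 change 2.54, SE 0.17, limma adjusted p = 2.49e-07). DLO1, the other hydroxylase, had 19.7, 19.3 and 29.1 FPKM in the triple mutant, against 1.52, 1.99 and 3.71 FPKM in the double mutant (log2 change 2.83). In both genes replicate 3 of crwn1;4 was the highest of its genotype and still far below the triple mutant. Of the genes that make or modify N-hydroxypipecolic acid, the mobile signal of systemic resistance, all 3 kept rose. ALD1 and UGT76B1 passed the filter only through the triple mutant, so they had to be higher there. SARD4, which reduces the intermediate, had 18.0, 16.9 and 19.9 FPKM in the triple mutant, against 5.92, 7.21 and 9.39 FPKM in the double mutant (log2 change 1.2), and the log2 changes were 0.83 for the aminotransferase gene ALD1 and 1.09 for UGT76B1, whose product glycosylates the signal. The fourth gene, FMO1, was not kept.

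Genes of salicylic acid receptors and their partners rose almost without exception. Of 16 kept, 15 rose and none fell, with a median log2 change of 1.14. WRKY62 (AT5G01900) and WRKY38, regulators that dampen basal defence, had log2 changes of 2.41 and 2.59. WRKY62 had 6.60, 6.11 and 6.28 FPKM in the triple mutant, against 0.895, 0 and 0.395 FPKM in the double mutant. WRKY70, which acts downstream of NPR1 and limits salicylic acid synthesis, had 109.7, 119 and 119 FPKM in the triple mutant, against 26.1, 33.6 and 43.0 FPKM in the double mutant (log2 change 1.76, SE 0.13, limma adjusted p = 3.74e-07). In WRKY62 and WRKY70 every triple mutant library was above every crwn1;4 library. For WRKY62 this follows from the filter, which it passed only through the triple mutant. NPR1, the receptor and coactivator, had 20.7, 22.8 and 24.4 FPKM in the triple mutant, against 12.9, 11.9 and 16.7 FPKM in the double mutant (log2 change 0.68). Over the whole WRKY family, 29 of 43 members kept rose and none fell, with WRKY51 at 9.16, 14 and 14.5 FPKM in the triple mutant, against 0.744, 0.528 and 1.76 FPKM in the double mutant. Of 38 NAC transcription factors kept, 29 rose and none fell, led by NAC090 (log2 change 2.15). Like WRKY62, NAC090 passed the filter only through the triple mutant, so it had to be higher there. How many other rises of these families did so was not counted. Another 24 WRKY and 43 NAC genes were not kept.

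Many immune receptor genes rose, for receptors at the cell surface and inside the cell. Of 9 genes for the EDS1 family and its helper receptors, which pass on signals of intracellular receptors, 8 rose. EDS1 had 28.2, 26.9 and 30.9 FPKM in the triple mutant, against 8.07, 10.8 and 11.9 FPKM in the double mutant (log2 change 1.41), and its partner PAD4 had a log2 change of 1.27. Of 21 sensor NLR receptors, 13 rose, among them ZAR1 at 67.3, 66.1 and 63.4 FPKM in the triple mutant, against 29.1, 29.9 and 33.6 FPKM in the double mutant (log2 change 1.07). That count was 8 without replicate 1 of crwn1;4, and 8 with 1 fall after median-ratio scaling or quantile normalization. ZAR1 was the only sensor receptor to rise at least 2-fold, and the list median log2 change was 0.31, against 0.11 for all genes. Of 15 pattern receptors and co-receptors at the cell surface, 9 rose and none fell. SOBIR1, the kinase partner of receptor-like proteins, had 172, 171 and 180.0 FPKM in the triple mutant, against 33.9, 34.7 and 60.8 FPKM in the double mutant (log2 change 2.04, SE 0.17, limma adjusted p = 9.33e-07). The flagellin receptor gene FLS2 had 5.84, 4.65 and 4.38 FPKM in the triple mutant, against 5.65, 5.79 and 6.12 FPKM in the double mutant and did not pass the test (limma adjusted p = 0.165), though median-ratio scaling and quantile normalization called it lower (adjusted p = 0.0431 and 0.0169).

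Large receptor families held many rises too. Of 38 cysteine-rich receptor-like kinases (CRK), 30 were kept, of which 21 rose and 2 fell. CRK6 (AT4G23140) had 43.8, 42.9 and 51.9 FPKM in the triple mutant, against 3.95, 5.68 and 10.3 FPKM in the double mutant (log2 change 2.71, SE 0.23, limma adjusted p = 9.98e-07). The falls were CRK42 and CRK21, with log2 changes of -0.83 and -0.62. Of 52 receptor-like proteins (RLP), 33 were kept, of which 20 rose and only RLP51 fell (log2 change -0.64). RLP23 (AT2G32680), the receptor of a peptide shared by many microbial toxins, had 25.6, 27.8 and 30.4 FPKM in the triple mutant, against 2.84, 1.71 and 7.51 FPKM in the double mutant (log2 change 2.70, SE 0.29, limma adjusted p = 8.46e-06). RLP38 had 17.5, 17.8 and 17.3 FPKM in the triple mutant, against 1.45, 1.87 and 2.78 FPKM in the double mutant (limma adjusted p = 5.74e-08). No crwn1;4 library of these 3 genes reached the level of a triple mutant library. Many members of both families are tandem copies, and how the authors counted reads shared between copies is not given in the sources used here. Genes of signalling downstream of the receptors rose as well, 11 of 13 of them. The mitogen-activated kinase gene MPK3 had 70.6, 73.8 and 66.4 FPKM in the triple mutant, against 30.1, 33.9 and 42.5 FPKM in the double mutant. The oxidase gene RBOHD, whose product makes apoplastic superoxide, had 22.9, 23.1 and 21.3 FPKM in the triple mutant, against 12.9, 12 and 13.1 FPKM in the double mutant.

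WRKY proteins bind the W box, whose core reads TTGAC, and this core was searched on both strands of the 250 bases before the annotated start of each gene in TAIR10.1. Of 759 promoters of genes that rose at least 2-fold, 62.7% held it and 29.4% held 2 or more copies, against 44.6% and 14.2% of all 17266 promoters of genes kept. Promoters of genes that rose less held it in 49.1% of cases, those of genes that fell in 40.2% and those of genes without a call in 42.7%. By family the share was 78.8% of 33 RLP promoters, 66.7% of 30 CRK promoters, 86.7% of 15 pattern receptor promoters, 53.5% of 43 WRKY promoters and 34.2% of 38 NAC promoters. A match describes these letters only. The promoters of CHI (chr2:18077518-18077767, minus strand), CRK6 (chr4:12121119-12121368, plus strand), RLP23 (chr2:13862615-13862864, minus strand) and WRKY62 (chr5:352096-352345, minus strand) are printed because each lies before a strongly risen gene described above and holds 2 matches. They were chosen after the values of their genes were seen. Each runs 5′ to 3′ in the direction of its gene, is taken from the RefSeq TAIR10.1 genome, and shows the core, or its reverse complement GTCAA, in capitals.
CHI: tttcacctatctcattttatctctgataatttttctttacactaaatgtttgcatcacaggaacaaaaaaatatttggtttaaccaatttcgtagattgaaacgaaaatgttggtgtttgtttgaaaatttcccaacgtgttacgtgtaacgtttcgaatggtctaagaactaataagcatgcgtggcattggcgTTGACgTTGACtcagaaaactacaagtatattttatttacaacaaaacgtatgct
CRK6: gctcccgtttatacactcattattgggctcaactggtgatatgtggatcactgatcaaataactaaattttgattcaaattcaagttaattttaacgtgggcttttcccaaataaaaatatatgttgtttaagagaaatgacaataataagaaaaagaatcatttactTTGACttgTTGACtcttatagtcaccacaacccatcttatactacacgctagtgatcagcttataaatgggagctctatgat
RLP23: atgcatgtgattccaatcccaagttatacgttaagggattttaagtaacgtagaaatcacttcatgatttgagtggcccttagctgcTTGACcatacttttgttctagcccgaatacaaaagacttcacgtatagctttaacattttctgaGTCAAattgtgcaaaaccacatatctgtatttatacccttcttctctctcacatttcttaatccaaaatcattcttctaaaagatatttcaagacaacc
WRKY62: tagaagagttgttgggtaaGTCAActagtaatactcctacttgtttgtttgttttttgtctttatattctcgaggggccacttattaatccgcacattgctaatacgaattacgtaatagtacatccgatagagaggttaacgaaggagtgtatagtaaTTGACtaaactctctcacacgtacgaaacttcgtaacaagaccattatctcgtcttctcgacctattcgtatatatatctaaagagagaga

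In CHI the matches start 55 and 49 bases before the gene start and lie side by side, and in CRK6 they start 82 and 74 bases before it. In RLP23 they start 163 and 99 bases before it, the second on the opposite strand, and in WRKY62 they start 231 (on the opposite strand) and 91 bases before it.

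**Figure D2:**
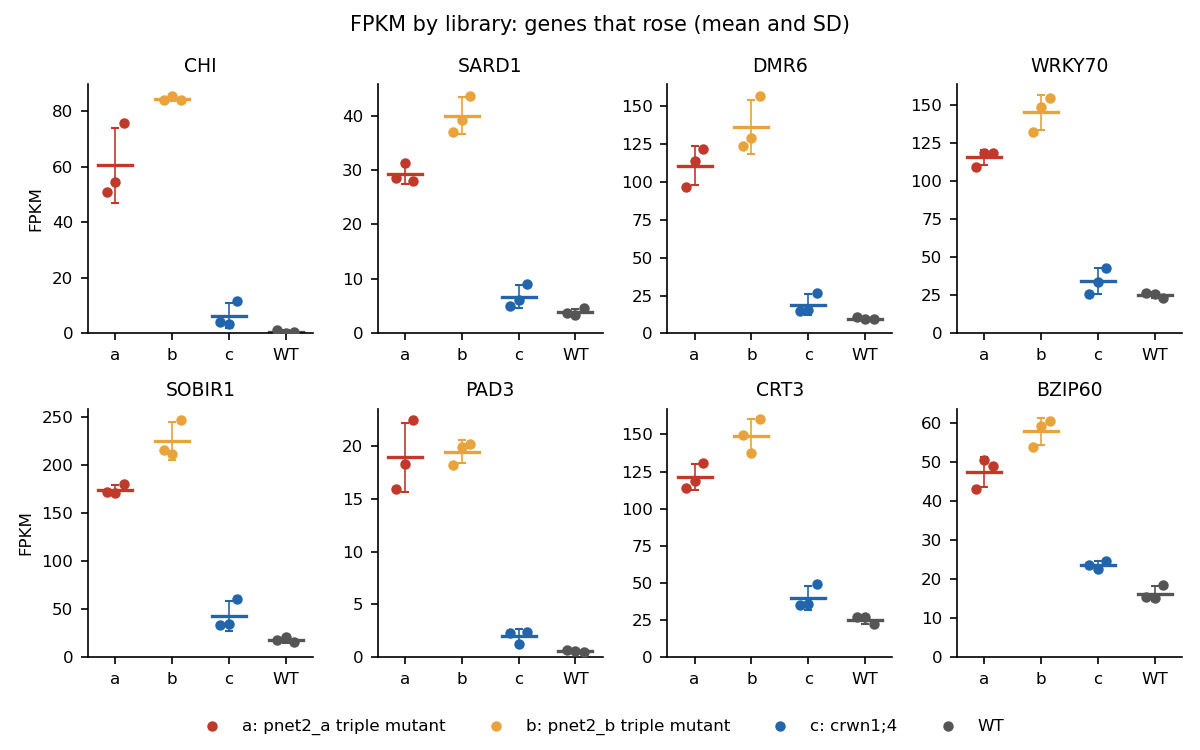
FPKM of 8 genes that rose, by genotype: a is the pnet2_a triple mutant, b the pnet2_b triple mutant, c crwn1;4, and WT the wild type. Points are libraries, horizontal bars the mean of 3 and whiskers the SD. In every panel the pnet2_a triple mutant libraries lie above all crwn1;4 libraries, as for WRKY70 with 109.7 to 119 FPKM against 26.1 to 43.0 FPKM.

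Most genes for the synthesis of tryptophan and of the indole defence compounds made from it rose. All 7 tryptophan synthesis genes kept rose, with TSA1, the alpha subunit of tryptophan synthase, at 65.4, 68.0 and 69.3 FPKM in the triple mutant, against 33.4, 36.8 and 37.4 FPKM in the double mutant. Of 9 genes of camalexin, the main phytoalexin of Arabidopsis, 8 rose, with a median log2 change of 1.54. PAD3, the cytochrome P450 of the last steps, had 15.9, 18.3 and 22.4 FPKM in the triple mutant, against 2.34, 1.23 and 2.38 FPKM in the double mutant (log2 change 2.75, SE 0.16, limma adjusted p = 1.36e-07). GSTF6, which supplies the glutathione conjugate, had 177, 221 and 221 FPKM in the triple mutant, against 31.3, 35.7 and 51.7 FPKM in the double mutant. GSTF6 and its neighbour GSTF7 are close copies, so their separate values are uncertain. Of 12 indole glucosinolate genes, 8 rose and 1 fell. The P450 gene CYP83B1 had 194, 202 and 206 FPKM in the triple mutant, against 95.3, 106 and 95.9 FPKM in the double mutant (log2 change 1.01, SE 0.061, limma adjusted p = 1.41e-07), while the regulator MYB34 was the member that fell (log2 change -0.45). Among 15 genes of aliphatic glucosinolates, which are made from methionine, few passed the test. Only 1 rose (MAM3, a chain-elongation enzyme, log2 change 0.85) and 2 fell (the regulator MYB76 at -0.83 and GSTF11 at -0.58), and falls were 6 after median-ratio scaling, 4 after quantile normalization and 4 without replicate 1 of crwn1;4.

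Jasmonate synthesis genes rose, while genes of jasmonate signalling and output moved in both directions. Of 13 synthesis genes, 10 rose and none fell, with LOX2, the plastid lipoxygenase, at 274, 281 and 304 FPKM in the triple mutant, against 167, 187 and 159 FPKM in the double mutant (log2 change 0.74). Of 16 genes of signalling and output, 6 rose and 4 fell (3 and 5 after quantile normalization, and 2 falls without replicate 2 of crwn1;4). TAT3, a tyrosine aminotransferase, had 40.8, 39.4 and 43.9 FPKM in the triple mutant, against 5.59, 3.02 and 6.14 FPKM in the double mutant (log2 change 2.88). The falls were the vegetative storage protein genes VSP1 and VSP2, the repressor gene JAZ3 (log2 change -0.48, adjusted p = 0.0539 without replicate 2 of crwn1;4) and the thionin gene THI2.1, an antimicrobial peptide. THI2.1 was listed at 0 in all 3 triple mutant libraries, against 1.24, 1.97 and 1.48 FPKM in crwn1;4. VSP2 had 5.53, 6.42 and 7.45 FPKM in the triple mutant, against 10.8, 29.0 and 16.9 FPKM in the double mutant, and this call was lost without replicate 2 or 3 of crwn1;4 or any 1 triple mutant library, with an adjusted p of up to 0.141. VSP1 and VSP2 are close copies, so their separate values are uncertain.

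Genes for protein folding in the endoplasmic reticulum (ER) rose nearly as a set. Of 19 chaperone and folding genes, 18 rose, with a median log2 change of 0.87, and the count was 18 under every scaling and with any 1 library left out. CRT3, a calreticulin needed to fold a cell-surface receptor, had 114, 119 and 131 FPKM in the triple mutant, against 35.1, 35.6 and 49.4 FPKM in the double mutant (log2 change 1.59, SE 0.12, limma adjusted p = 4.1e-07). BIP2, an HSP70 chaperone of the ER lumen, had 103, 103 and 104 FPKM in the triple mutant, against 47.0, 50.8 and 56.3 FPKM in the double mutant (log2 change 1.00), and SHD, the HSP90 of the ER, had 159.7, 163 and 178 FPKM in the triple mutant, against 79.0, 82.6 and 94.5 FPKM in the double mutant. The oxidase gene ERO2 was the member without a call (limma adjusted p = 0.0863). BZIP60, the transcription factor activated by IRE1 splicing, had 43.1, 50.4 and 48.9 FPKM in the triple mutant, against 23.6, 22.5 and 24.7 FPKM in the double mutant (log2 change 0.98, SE 0.088, limma adjusted p = 1.8e-06). The related BZIP17 and BZIP28 had log2 changes of 0.67 and 0.41.

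ER chaperone promoters can hold the ER stress element, CCAAT, 10 bases of any kind and CACG, which is bound by NF-Y and bZIP factors. It was found on either strand within 250 bases of the start in 7 of the 19 ER list promoters (36.8%), against 160 of 17266 (0.927%). The list was not chosen by this motif. The 7 genes are BIP3, CRT1a, SHD, PDIL1-1, PDIL1-2, P58IPK and EBS1, all of which rose. They encode an HSP70 chaperone, a calreticulin, the ER HSP90, 2 protein disulfide isomerases, a co-chaperone and a glucosyltransferase of glycoprotein quality control. BIP3 had 7.50, 5.57 and 7.85 FPKM in the triple mutant, against 0.404, 1.28 and 2.77 FPKM in the double mutant (log2 change 1.79, SE 0.28, limma adjusted p = 0.000213). All their matches are printed in the direction of the gene, from the RefSeq TAIR10.1 genome, with both ends of the element in capitals and 6 flanking bases where the promoter window allows.
BIP3 far copy: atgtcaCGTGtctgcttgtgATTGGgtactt
BIP3 near copy: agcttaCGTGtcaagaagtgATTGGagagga
CRT1a: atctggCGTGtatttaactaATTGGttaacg
SHD: cttgctCCAATacaaaactacCACGtgg
PDIL1-1: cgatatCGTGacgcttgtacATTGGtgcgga
PDIL1-2: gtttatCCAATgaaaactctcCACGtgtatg
P58IPK far copy: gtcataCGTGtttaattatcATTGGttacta
P58IPK near copy: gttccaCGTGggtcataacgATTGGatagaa
EBS1: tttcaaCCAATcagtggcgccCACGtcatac

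The BIP3 matches start 174 and 96 bases before the gene start (chr1:2932000-2932030 and chr1:2931922-2931952), and the P58IPK matches 119 and 59 bases before it (chr5:749976-750006 and chr5:750036-750066). The single matches start 68 bases before CRT1a (chr1:21092753-21092783), 22 before SHD (chr4:12556059-12556086), 187 before PDIL1-1 (chr1:7645417-7645447), 64 before PDIL1-2 (chr1:29126578-29126608) and 28 before EBS1 (chr1:26841516-26841546). BIP3, CRT1a and SHD lie on the minus strand and the others on the plus strand. In PDIL1-2, SHD and EBS1 the element reads CCAAT first, and in the others its reverse complement is read, CGTG first.

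**Figure D3:**
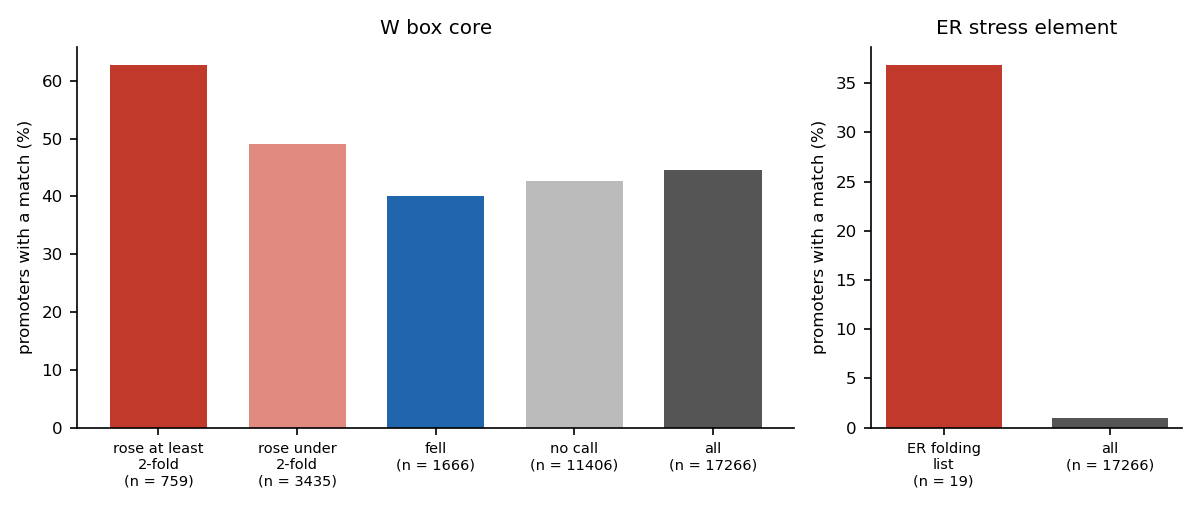
Bars give the share of promoters (250 bases, both strands, in %) with at least 1 match, the W box core on the left by call and the ER stress element on the right in the ER folding list and in all promoters, each from 0. The W box is most frequent before genes that rose at least 2-fold (62.7%, all promoters 44.6%), and the ER stress element is held by 36.8% of the ER list and 0.927% of all promoters.

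Genes for other parts of protein quality control rose by smaller amounts. Of 34 proteasome subunits, 31 rose and none fell, with a median log2 change of 0.37. Small shifts of this size depend on scaling, and 19 rose after median-ratio scaling and 21 after quantile normalization. RPT3, an ATPase of the proteasome base, had 59.1, 54.6 and 60.9 FPKM in the triple mutant, against 37.0, 39.8 and 40.6 FPKM in the double mutant (log2 change 0.56), and RPN10, a ubiquitin receptor, had 62.5, 65.6 and 66.2 FPKM in the triple mutant, against 44.7, 44.4 and 44.8 FPKM in the double mutant (log2 change 0.53). Of 7 cytosolic heat shock genes 4 rose, led by the heat shock factor HSFB1 (log2 change 1.46) and HSP90.1 (1.1). Of 18 autophagy genes 7 rose and none fell, while 4 rose after median-ratio scaling, 3 after quantile normalization and 3 without replicate 1 of crwn1;4 or replicate 3 of the triple mutant.

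Most genes kept of the stress, cell death and senescence lists rose. Of 14 genes of oxidative and mitochondrial stress, 11 rose and 2 fell. The alternative oxidase gene AOX1A, a marker of mitochondrial stress, had 50.8, 54.3 and 51.6 FPKM in the triple mutant, against 23.5, 25 and 27.7 FPKM in the double mutant (log2 change 1.01). ZAT12, a zinc finger regulator, had 13.3, 14.9 and 15.8 FPKM in the triple mutant, against 3.32, 2.37 and 3.35 FPKM in the double mutant. The falls were the iron superoxide dismutase gene FSD1, with 132, 105 and 88.1 FPKM in the triple mutant, against 241, 208 and 215 FPKM in the double mutant (log2 change -1.04), and APX1 (log2 change -0.23). Of 9 cell death regulators 7 rose, with ACD6, a membrane protein that promotes salicylic acid signalling and cell death, at 159, 172 and 159 FPKM in the triple mutant, against 37.1, 41.4 and 50.0 FPKM in the double mutant. LSD1, which restrains cell death, did not change past the threshold (log2 change 0.037, limma adjusted p = 0.866). Of 11 genes of senescence and chlorophyll breakdown 10 rose. WRKY53, an early regulator of senescence, had 23.4, 21.2 and 28.6 FPKM in the triple mutant, against 3.00, 4.54 and 5.48 FPKM in the double mutant, and SAG12, a protease of late senescence, had 2.53, 8.07 and 3.01 FPKM in the triple mutant, against 0, 0 and 0.429 FPKM in the double mutant, low and variable in the triple mutant. Of 6 energy starvation genes kept, SEN1, a marker of darkness and sugar starvation, and DIN10, a raffinose synthase, fell (log2 changes -2.36 and -0.72), while BCAT-2, an aminotransferase of branched-chain amino acids, rose (0.48). The BCAT-2 call was lost without replicate 1 or 2 of crwn1;4 or replicate 2 or 3 of the triple mutant and after either other scaling, with an adjusted p of up to 0.114. SEN1 had 2.44, 3.50 and 3.37 FPKM in the triple mutant, against 20.1, 18.3 and 21.5 FPKM in the double mutant.

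Genes of iron and sulfur supply changed. Of 11 iron genes 5 rose and 1 fell, or 2 fell without replicate 2 of the triple mutant and after either other scaling. OPT3, which loads iron into the phloem, had 87.8, 73.6 and 82.0 FPKM in the triple mutant, against 32.0, 32.3 and 35.6 FPKM in the double mutant (log2 change 1.26). FER1, the ferritin that stores iron in plastids, had 26.3, 33.6 and 34.9 FPKM in the triple mutant, against 92.1, 75.8 and 67.2 FPKM in the double mutant (log2 change -1.28, SE 0.13, limma adjusted p = 4.76e-06). The other rises were PYE, BTS and the peptide genes IMA3 and IMA2, with log2 changes of 0.80, 0.56, 1.31 and 0.95. The IMA2 call was lost without replicate 1 or 3 of either genotype and after quantile normalization, with an adjusted p of up to 0.159. Of 9 genes of sulfur deficiency 7 rose and none fell, and LSU1, a small stress protein, had 14.7, 12.8 and 12.7 FPKM in the triple mutant, against 0.621, 1.98 and 2.45 FPKM in the double mutant (log2 change 2.49, SE 0.27, limma adjusted p = 9.18e-06).

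Photosynthesis genes, among the most abundant transcripts of leaves, fell. The 70 antenna, photosystem and Calvin cycle genes on the lists made up 24.3 ± 0.621% of all FPKM in the triple mutant and 29.5 ± 0.950% in crwn1;4 (SD, n = 3 each). Of 21 light-harvesting antenna genes 19 fell and of 31 photosystem and electron transport genes 27 fell, with median log2 changes of -0.37 and -0.31 and no rises. Quantile normalization, which forces the libraries to 1 distribution, left 7 and 11 falls. LHCB2.3, an antenna protein of photosystem II, had 374, 371 and 316 FPKM in the triple mutant, against 662, 679 and 646 FPKM in the double mutant (log2 change -0.91, SE 0.07, limma adjusted p = 5.04e-07). FD2, the main leaf ferredoxin, had 1432, 1601 and 1474 FPKM in the triple mutant, against 2340.2, 2237 and 2089.6 FPKM in the double mutant (log2 change -0.56). All triple mutant libraries were below all crwn1;4 libraries for both. Antenna genes are close copies of each other, so single values are uncertain.

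Fewer genes of carbon fixation passed the test. Of 18 Calvin cycle genes 9 fell and none rose, and this became 2 falls and 2 rises under quantile normalization. HCEF1, the plastid fructose bisphosphatase, had 421, 423 and 426 FPKM in the triple mutant, against 535, 506 and 509.6 FPKM in the double mutant (log2 change -0.29). Of 12 photorespiration genes 8 fell, or 4 without replicate 1 of crwn1;4 and 5 without replicate 1 or 3 of the triple mutant. Among them CAT2, the leaf catalase, had 154, 147 and 137 FPKM in the triple mutant, against 244, 213 and 199.7 FPKM in the double mutant (log2 change -0.58). Of 17 chlorophyll synthesis genes 11 fell. PORA, a protochlorophyllide reductase, had 6.50, 5.65 and 5.10 FPKM in the triple mutant, against 15.9, 12.5 and 13.3 FPKM in the double mutant (log2 change -1.14, SE 0.14, limma adjusted p = 3e-05), and HEMA1, which starts the pathway, had 129.6, 139.7 and 123 FPKM in the triple mutant, against 203, 198 and 191 FPKM in the double mutant. Plastid-encoded genes, 75 of 133 kept, held 21 falls and no rises, and the capture of such transcripts in messenger RNA libraries varies with the preparation.

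Of the 2 GLK transcription factors, which switch on antenna and chlorophyll genes together, GLK2 passed the test. GLK2 had 51.2, 44.8 and 45.3 FPKM in the triple mutant, against 84.7, 80.1 and 75.7 FPKM in the double mutant (log2 change -0.76). GLK1 had 137, 137 and 128 FPKM in the triple mutant, against 124, 123 and 128 FPKM in the double mutant and did not pass the test (limma adjusted p = 0.309). The triple mutant was below crwn1;4 in every GLK2 library, while the genotypes were close for GLK1. Whether the changes of GLK1 and GLK2 differ was not tested. Of 11 regulators of greening and plastid sigma factors, 3 fell (GLK2, GNC and SIG1), or 6 after median-ratio scaling or quantile normalization. Cell type markers moved with these genes. Of 6 mesophyll markers 5 fell, or 1 under quantile normalization, and their summed level was 21334 to 22637 FPKM in the triple mutant, against 25079 to 27434 FPKM in crwn1;4. These markers are photosynthesis genes themselves, and in whole leaves fewer cells of a type and less RNA per cell cannot be told apart. The part of cell type in the falls was not tested.

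**Figure D4:**
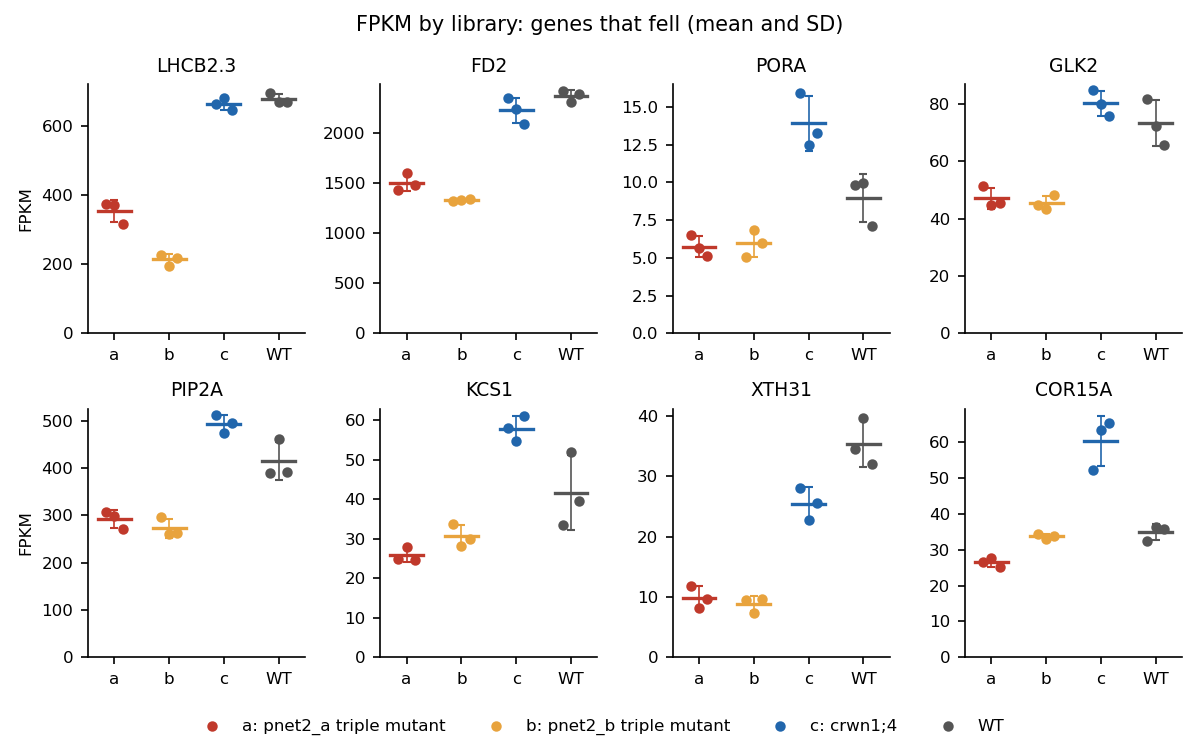
FPKM of 8 genes that fell, by genotype, with letters, points, bars and whiskers as in the plot of risen genes (a, pnet2_a triple mutant; b, pnet2_b triple mutant; c, crwn1;4; WT). The pnet2_a triple mutant libraries lie below all crwn1;4 libraries in every panel, as for LHCB2.3 with 316 to 374 FPKM against 646 to 679 FPKM.

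Most plasma membrane aquaporins and KCS wax elongases kept fell, and more genes of wall loosening and auxin response fell than rose. Of 10 plasma membrane aquaporins 8 fell and none rose (1 rose without replicate 3 of crwn1;4), with PIP2A at 308, 299.6 and 271 FPKM in the triple mutant, against 513, 475 and 494 FPKM in the double mutant (log2 change -0.75). Of 14 KCS elongases, which make the very long fatty acids of wax, 10 fell, and KCS1 had 25, 28.0 and 24.8 FPKM in the triple mutant, against 58, 54.7 and 61.1 FPKM in the double mutant (log2 change -1.13, SE 0.12, limma adjusted p = 1.02e-05). Among 18 XTH genes, which cut and rejoin xyloglucan in the wall, 8 fell and 3 rose, with 5 falls without replicate 3 of crwn1;4 or replicate 2 of the triple mutant. XTH31 had 11.9, 8.18 and 9.62 FPKM in the triple mutant, against 28.1, 22.7 and 25.7 FPKM in the double mutant (log2 change -1.29). XTH10 had 1.03, 1.18 and 1.44 FPKM in the triple mutant and was listed at 0 in all 3 crwn1;4 libraries. Of 12 alpha-expansins 6 fell and 2 rose, with EXPA8 at 40.6, 33.8 and 24.9 FPKM in the triple mutant, against 71.4, 65.0 and 65.5 FPKM in the double mutant (log2 change -1.03).

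Of 17 Aux/IAA genes, early auxin targets that encode repressors of auxin response, 10 fell and none rose (1 rose without replicate 2 of crwn1;4). IAA29 had 1.00, 0 and 0.613 FPKM in the triple mutant, against 3.57, 3.99 and 3.80 FPKM in the double mutant (log2 change -1.69), and IAA7 and IAA16 had log2 changes of -0.48 and -0.44. Of 13 SAUR genes, also induced by auxin, 6 fell and SAUR9 rose (log2 change 0.67), a call lost without replicate 1 or 2 of crwn1;4 or replicate 3 of the triple mutant and after either other scaling, with an adjusted p of up to 0.171. Among markers of other leaf tissues, most epidermis markers fell and few vascular and guard cell markers did. CER1, a wax enzyme of the epidermis, had 15.1, 12.3 and 12.5 FPKM in the triple mutant, against 22.6, 22 and 30.1 FPKM in the double mutant. Epidermis markers fell in 5 of 6 cases, or 3 without replicate 1 or 3 of crwn1;4, while their summed level was 1441 to 1602 FPKM in the triple mutant and 1620 to 1688 FPKM in crwn1;4. SUC2, a sucrose carrier of companion cells, had 33.6, 35.4 and 37.7 FPKM in the triple mutant, against 52.7, 57.5 and 57.3 FPKM in the double mutant, the 1 of 6 vascular markers that fell. KAT1, a potassium channel of guard cells, had 4.70, 3.34 and 2.90 FPKM in the triple mutant, against 8.37, 9.18 and 8.22 FPKM in the double mutant (log2 change -1.06), and with MYB60 it made 2 falls among 7 guard cell markers. Of all genes kept 9.56% fell, and the vascular and guard cell lists are too small to set apart from that share. Their median log2 changes were -0.04 and -0.08.

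Cold response genes fell in part. Of 9 kept, 4 fell and none rose. COR15A, a protein that protects plastid membranes, had 26.6, 27.6 and 25.2 FPKM in the triple mutant, against 52.1, 63.1 and 65.2 FPKM in the double mutant (log2 change -1.15, SE 0.083, limma adjusted p = 3.33e-07). COR47, a dehydrin, had 70.3, 68.0 and 65.0 FPKM in the triple mutant, against 106, 96.2 and 108 FPKM in the double mutant (log2 change -0.60). In both genes the triple mutant libraries lay below and close together. The transcription factor gene CBF2 and COR15B had log2 changes of -0.75 and -0.36. The COR15B call was lost without replicate 3 of crwn1;4 or replicate 2 or 3 of the triple mutant, with an adjusted p of up to 0.104.

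Few genes of the nuclear envelope passed the test, while 8 of 12 genes of the DNA damage response did. Of all genes kept, 23.6% rose and 9.56% fell, and the 2 rises among 11 nuclear pore genes lie near that share. Of 19 genes of the lamina and of the LINC complexes that bridge the nuclear envelope, 2 rose and 1 fell. SINE2, an actin-linked bridge protein, had 2.34, 2.15 and 2.17 FPKM in the triple mutant, against 0.867, 1.41 and 1.22 FPKM in the double mutant (log2 change 0.58). NEAP3, a lamina-associated protein, had a log2 change of 0.46, and WIP2, an outer envelope protein, one of -0.43. The NEAP3 call was lost after either other scaling and without replicate 1 or 3 of crwn1;4 or replicate 1 or 2 of the triple mutant, with an adjusted p of up to 0.106. The WIP2 call was lost without replicate 2 or 3 of either genotype, with an adjusted p of up to 0.105. Of 11 nuclear pore genes 2 rose, NUP43 (log2 change 0.68) and NUP155 (0.34), and the NUP155 call was lost after either other scaling and without replicate 1 or 2 of either genotype, with an adjusted p of up to 0.257. Of 12 DNA damage genes 8 rose and none fell. Rises were 6 without replicate 3 of the triple mutant, up to 9 with another library left out, and 7 with 1 fall after quantile normalization. SOG1, the transcription factor that leads this response in plants, had 7.67, 7.31 and 6.78 FPKM in the triple mutant, against 2.54, 2.67 and 4.37 FPKM in the double mutant (log2 change 1.00), and PARP2, a poly(ADP-ribose) polymerase, had 7.98, 7.28 and 6.69 FPKM in the triple mutant, against 2.18, 2.98 and 2.81 FPKM in the double mutant (log2 change 1.19). Of 16 replication and cell cycle genes only MCM4 and PCNA1 rose (log2 changes 0.40 and 0.44), and MCM4 lost its call after either other scaling and without replicate 1 of crwn1;4 or replicate 2 or 3 of the triple mutant, with an adjusted p of up to 0.106.

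**Figure D5:**
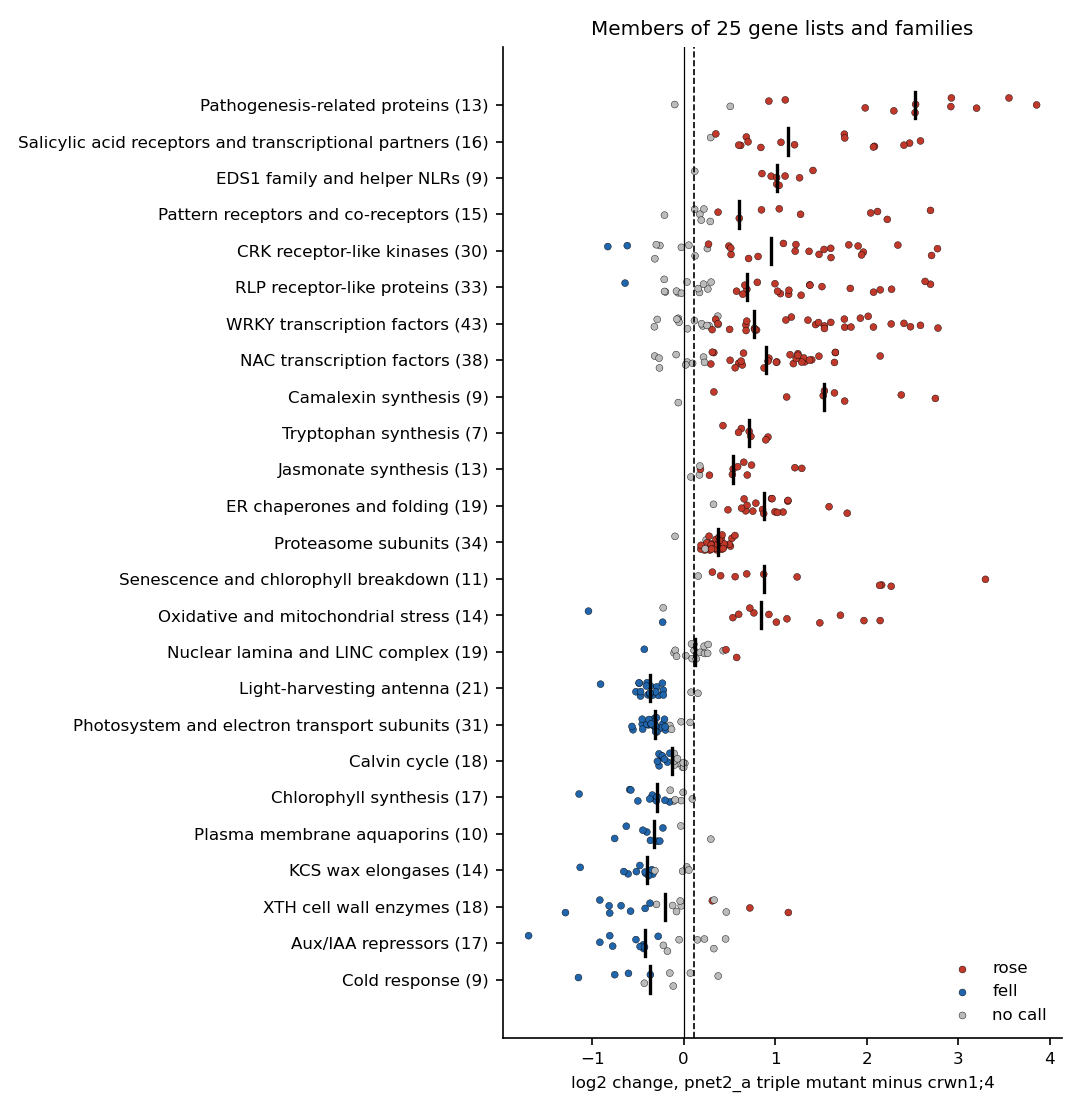
Each point is a gene of the list or family on the left (number kept in brackets), placed by its log2 change of the triple mutant minus crwn1;4; red rose, blue fell, grey had no call. Thick bars are list medians, from 2.53 for PR proteins to -0.43 for Aux/IAA repressors, and the dashed line is the median of all genes, 0.11.

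The 15 largest rises and 15 largest falls were taken among called genes with at least 5 FPKM in the higher genotype and no overlap. Several of these genes lie outside the groups above. Those within the groups include PR1, BG3 and BGL2 (pathogenesis-related proteins, log2 changes 3.86, 3.55 and 2.92) and SAG13 (senescence, 3.30). Among the falls they include SEN1 and VSP1 (log2 change of VSP1 -2.25). ARD3, of methionine salvage, a list not described above, had a log2 change of 3.80. Of 11 genes of that list 4 rose and none fell, with a median log2 change of 0.20. PCR1, a membrane protein of metal tolerance, had 302, 340.4 and 340.4 FPKM in the triple mutant, against 37.4, 25.4 and 58 FPKM in the double mutant (log2 change 3.07, SE 0.25, limma adjusted p = 8.25e-07). AT1G13470, a protein of unknown function (DUF1262), had 43.8, 47.8 and 51.2 FPKM in the triple mutant, against 3.98, 4.05 and 8.20 FPKM in the double mutant (log2 change 2.98). AT3G28510, a predicted P-loop nucleoside triphosphatase, had a log2 change of 2.90, and AT2G44240, annotated as a NEP-interacting protein, one of 3.25. Lack of overlap was a condition of this ranking, so it is not a result for these genes.

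Several of the largest falls also lie outside these groups. SCPL13, a serine carboxypeptidase-like protein, had 10.05, 10.3 and 10.5 FPKM in the triple mutant, against 35.5, 36.9 and 30.2 FPKM in the double mutant (log2 change -1.64, SE 0.081, limma adjusted p = 5.08e-08). AT1G66100, a plant thionin, had 31.4, 36.6 and 36.3 FPKM in the triple mutant, against 113, 134 and 93.3 FPKM in the double mutant (log2 change -1.67). ADS1, a fatty acid desaturase, had 3.83, 2.44 and 2.60 FPKM in the triple mutant, against 12.5, 10.5 and 11.3 FPKM in the double mutant (log2 change -1.66). As with the rises, lack of overlap was a condition of the ranking. AT4G36850, a PQ-loop membrane protein, AT2G20870, annotated as a cell wall protein, and AT2G05540, a glycine-rich protein, had log2 changes of -1.97, -2.37 and -2.06. AT5G62280 (DUF1442) had one of -1.94. The uncharacterized genes AT5G54585, AT4G13575 and AT1G75945 had log2 changes of -1.85, -1.76 and -1.75. The noncoding RNA gene AT2G09785, which overlaps a ubiquitin gene, had 26.8, 26.5 and 23.9 FPKM in the triple mutant, against 134, 122 and 91.6 FPKM in the double mutant (log2 change -2.11).

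Levels in the other genotypes place this contrast, as a description without a test. CHI averaged 60.5 ± 13.4 FPKM in the pnet2_a triple mutant, 84.5 ± 0.774 FPKM in the pnet2_b triple mutant, 6.39 ± 4.52 FPKM in crwn1;4 and 0.555 ± 0.600 FPKM in WT (SD, n = 3 each). DMR6 averaged 111 ± 12.8 FPKM in the pnet2_a triple mutant, 137 ± 18.0 FPKM in the pnet2_b triple mutant, 18.9 ± 6.96 FPKM in crwn1;4 and 9.79 ± 0.684 FPKM in WT. For both genes crwn1;4 lay between WT and the triple mutants. LHCB2.3 averaged 354 ± 32.7 FPKM in the pnet2_a triple mutant, 214 ± 16 FPKM in the pnet2_b triple mutant, 663 ± 16.8 FPKM in crwn1;4 and 677 ± 14.7 FPKM in WT. KCS1 averaged 25.9 ± 1.82 FPKM in the pnet2_a triple mutant, 30.6 ± 2.79 FPKM in the pnet2_b triple mutant, 57.9 ± 3.21 FPKM in crwn1;4 and 41.7 ± 9.47 FPKM in WT. For LHCB2.3 crwn1;4 and WT lay close together, while for KCS1 WT lay between crwn1;4 and the triple mutants. The 70 photosynthesis genes took 24.3 ± 0.621% of all FPKM in the pnet2_a triple mutant, 19.8 ± 0.515% in the pnet2_b triple mutant, 29.5 ± 0.950% in crwn1;4 and 29.3 ± 0.730% in WT.

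The pnet2_a triple mutant was also set against the pnet2_b triple mutant, which carries the same CRWN knock outs. Of the 18277 genes, 554 differed (3.03%), 144 higher (0.788%) and 410 lower (2.24%) in the pnet2_a triple mutant. Median-ratio scaling turned the split to 394 higher and 135 lower, and without replicate 2 of the pnet2_a triple mutant only 128 genes differed, so the single genes named for this comparison are those that kept their call under every alternative run other than a minimum of 2-fold, which several are too small to pass. Antenna genes were higher in the pnet2_a triple mutant, 19 of 21 of them, and so were 24 of 31 photosystem genes, or 7 and 4 after quantile normalization, 15 and 8 without the intensity trend, 16 and 13 without replicate 2 of the pnet2_a triple mutant, and 15 and 15 without replicate 3 of the pnet2_b triple mutant. LHCB2.3 had 374, 371 and 316 FPKM in the pnet2_a triple mutant, against 227, 196 and 219 FPKM in the pnet2_b triple mutant (log2 difference 0.72, SE 0.07, limma adjusted p = 0.000145), and the difference for LHCB4.2, a minor antenna protein, was 0.54.

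Several single genes of defence, stress and other functions were lower in the pnet2_a than in the pnet2_b triple mutant. Most members of the defence lists did not differ. Of 13 PR genes kept 1 was higher and none lower, and none of 9 camalexin and 43 WRKY genes was called. Lower were 2 of 15 salicylic acid synthesis, 5 of 15 aliphatic glucosinolate and 5 of 19 ER folding genes. These counts were unstable. The ER folding count was 2 after median-ratio scaling or without the intensity trend. It was 1 without replicate 2 of the pnet2_a triple mutant and 14 in a fit of the 2 genotypes alone. With 1 library left out, the aliphatic glucosinolate count was 1 to 8 and the salicylic acid synthesis count 1 to 4. The median log2 difference over all genes was -0.11. PBS3 had 9.92, 10.9 and 12.6 FPKM in the pnet2_a triple mutant, against 19.9, 19.1 and 23.3 FPKM in the pnet2_b triple mutant (log2 difference -0.84, SE 0.12, limma adjusted p = 0.00295). BIP2 had 103, 103 and 104 FPKM in the pnet2_a triple mutant, against 139, 131 and 157 FPKM in the pnet2_b triple mutant (log2 difference -0.45). VSP1 had 2.46, 2.04 and 3.94 FPKM in the pnet2_a triple mutant, against 49.2, 13.1 and 27.0 FPKM in the pnet2_b triple mutant (log2 difference -2.86). The 2 triple mutants did not overlap for VSP1. THI2.1 was listed at 0 in the pnet2_a triple mutant and at 2.18, 1.36 and 0.982 FPKM in the pnet2_b triple mutant. CER1 had 15.1, 12.3 and 12.5 FPKM in the pnet2_a triple mutant, against 25.1, 28.8 and 21.1 FPKM in the pnet2_b triple mutant (log2 difference -0.86). BT2, a scaffold protein of nitrogen and stress signalling, and MBP2, a myrosinase-binding protein, were chosen after their values were seen, with log2 differences of -1.29 and -1.67. AT2G32870, of the TRAF-like family, had 8.42, 7.98 and 8.47 FPKM in the pnet2_a triple mutant, against 24.3, 29.2 and 20.3 FPKM in the pnet2_b triple mutant (log2 difference -1.45, SE 0.11, limma adjusted p = 2.15e-05). AT4G22485, of the lipid-transfer protein family, went the other way, with 34.4, 24.4 and 50.9 FPKM in the pnet2_a triple mutant, against 4.80, 11.2 and 10.4 FPKM in the pnet2_b triple mutant (log2 difference 1.95, SE 0.32, limma adjusted p = 0.0068).

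Some genes were listed at 0 in every library of one genotype and had values in every library of the other. In 22 genes all 3 triple mutant libraries had at least 1 FPKM while crwn1;4 was listed at 0 in all 3, and in 6 genes the reverse held. AT3G01345, an uncharacterized protein, had 146, 130.5 and 131 FPKM in the pnet2_a triple mutant and was listed at 0 in all 9 other libraries. AT1G64795 had 20.9, 26.8 and 32.1 FPKM in crwn1;4 and was listed at 0 in all 9 others, and it overlaps another gene on the opposite strand. Apart from AT3G01345 and SPX3, the 22 genes had values above 0 in all 3 pnet2_b triple mutant libraries. SPX3, a phosphate sensor protein chosen after its values were seen, had 1.52, 1.16 and 1.32 FPKM in the pnet2_a triple mutant and 0, 0 and 0.299 FPKM in the pnet2_b triple mutant, and was listed at 0 in crwn1;4.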

How the data were processed

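Messenger RNA of 12 leaf libraries was sequenced with strand-specific kits, per the labels. The submitters' processing notes name HISAT2 2.0.4 and the TAIR10 genome. The deposited table holds FPKM values per gene that the authors computed, with no counts, and its low values show no read steps, so depth is unknown. The counting tool is not given in the sources used here.

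Genes with at least 1 FPKM in 3 or more of the 6 libraries were kept. log2(FPKM + 1) was fitted with limma 3.58.1 in R 4.3.3 (genotype term, intensity trend, all 12 libraries, 8 residual degrees of freedom), with Benjamini-Hochberg adjustment over 18277 genes and a threshold of 0.05. The fit was tested on simulated data. Promoters and gene names came from RefSeq TAIR10.1 through Python 3.11.15 scripts. Other scalings, pseudocounts, filters and left-out libraries are given in the closing section.

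The members and gene lists were chosen with earlier results of these data known. Named genes were the 15 largest rises and falls with at least 5 FPKM in the higher genotype and no overlap, up to 6 genes of each list by adjusted p, and the leading gene against the list's direction. APX1, BIP3, BT2, CRK42, ERO2, JAZ3, LHCB4.2, LSD1, MBP2, NPR1, SPX3 and VSP2 were chosen after their values were seen.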

Additional observations from a re-analysis of the deposited data

How the results depend on the processing

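The triple mutant and crwn1;4 differed at 5065 to 6513 genes under other pseudocounts, filters, scalings and fits, against 6060 in the result reported. Median-ratio scaling gave 2751 falls, quantile normalization 2654 rises and 3074 falls, and a minimum of 2-fold 909 genes, 796 rises and 113 falls. Of the 6060 genes, 4642 kept their call and direction after median-ratio scaling and 4350 after quantile normalization. Leaving out 1 library gave 4675 (without replicate 1 of crwn1;4) to 6242 genes, 3267 to 4457 rises and 1344 to 1802 falls. No gene named here with a call had the opposite direction under any of these alternatives. The set against the pnet2_b triple mutant was less stable. Of 554 genes (144 higher, 410 lower in the pnet2_a triple mutant), median-ratio scaling gave 394 higher and 135 lower, quantile normalization 222 and 164, and a fit without the intensity trend 205 genes, 51 higher and 154 lower. A fit of the 2 genotypes alone gave 1037 genes, 827 of them lower, and a minimum of 2-fold 38 genes, 12 higher and 26 lower. Leaving out 1 library gave 128 (without replicate 2 of the pnet2_a triple mutant) to 652 genes, 54 to 158 higher and 74 to 494 lower. The cause of these shifts was not tested. Same-numbered libraries of the triple mutant and crwn1;4 had correlations of their deviations of 0.056, -0.0009 and 0.062. Replicates 1 and 3 correlated best with their own number and replicate 2 did not. Whether libraries of the same number share a batch cannot be told from these values, and the fit reported did not pair them. A replicate block gave 5969 genes against crwn1;4 and 410 against the pnet2_b triple mutant. Depth is unknown.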

Other observations

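Rises and falls of the triple mutant against crwn1;4 were spread differently over expression levels. When genes were split into 5 equal classes by their mean FPKM in WT, a group outside this contrast, 27.6% of the lowest class rose and 3.25% fell. In the highest class 23.4% rose and 22.2% fell. Rises of at least 2-fold took 13.8% of the lowest class and 1.18% of the highest. The filter bears on the lowest class. A gene low in WT was kept only if enough libraries of crwn1;4 or the triple mutant reached 1 FPKM. Of all genes kept, 261 passed only through the triple mutant and 62 only through crwn1;4. How many of them lie in the lowest class was not counted, so part of its rises can come from the filter. Genes of 1 or 2 exons rose in 22.9% of cases and genes of 11 or more exons in 20.1%, and rises of at least 2-fold were 6.91% and 1.44%. Across the 5 chromosomes the share of genes that rose was 22.6% to 25.5%. Of 33 microRNA loci kept, 9 fell (27.3%), against 9.56% of all genes, and such loci are measured here in libraries not made for small RNA. These are descriptions with no test.

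Other letters were searched in the same promoters. TGACGTGG, an unfolded protein response element, was in 21.1% of the 19 ER folding promoters and 1.62% of all. TGGGC was in 47.1% of 34 proteasome promoters and 27.0% of all, and in 57.9% of ER folding promoters.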
